A study of Mus musculus with 15 samples.

Results

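Nucleosome occupancy was examined at the promoters of 10 genes encoding transcription factors of the myeloid lineage: Spi1, Cebpa, Cebpb, Ikzf1, Runx1, Id2, Zeb2, Tcf4, Batf3 and Klf4. All annotated start sites of these genes in the authors' promoter annotation were taken, which gave 12 promoters out of 25881, since Runx1 and Tcf4 are each listed with a pair of starts. Of the 12, 7 promoters (of 6 genes) had a coverage score above 100, a score that the methods define from the fragments around each start in non-stimulated cells, and belong to the 13559 promoters above this limit, on which the tests were run. The remaining 5 (Cebpa, Id2, Klf4 and both Tcf4 starts) are low-coverage promoters, whose values are given but are less certain. The nearest members on either side of the limit were Runx1 start 2, with a score of 104.5, and Tcf4 start 1, with 95.5.

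The measurements came from ChIP-MNase. Here long pieces of chromatin are immunoprecipitated before micrococcal nuclease cuts them to nucleosomes, so that the sequenced fragments map nucleosomes at chosen regions. H3K4me1, a histone mark of both promoters and enhancers, was the target in 12 of the 15 mouse libraries. They were dendritic cells (DCs), differentiated in vitro from progenitor lines of bone marrow, non-stimulated or given LPS at 100 ng/ml for 1 h, and 3T3 fibroblasts, an immortalised line, non-stimulated or given TNF-α at 5 ng/ml for 1 h. Each of these 4 sets sums 2 replicates that the authors pooled. A further 8 H3K4me1 libraries were single replicates of control and BAF-knockdown 3T3 fibroblasts, 2 non-stimulated and 2 TNF-α-stimulated for each. The knockdown used a single stably expressed shRNA against the catalytic subunits Brg1 and Brm of the BAF chromatin remodelling complex, so it is 1 targeting construct in 1 line, and DCs were not studied with it. The last 3 libraries were from TNF-α-stimulated fibroblasts with antibodies against RNA polymerase II (pol-II) phosphorylated at serine 7 (S7P, 2 replicates) or serine 5 (S5P, 1 library). For S5P the methods count 2 replicates, and the sources do not say whether the single library pools them, so it may not be comparable to 1 S7P replicate. No agent was given to the non-stimulated groups.

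Myeloid cells arise from blood progenitors under the control of a small set of transcription factors. PU.1, encoded by Spi1, and the C/EBP proteins bind together at many myeloid enhancers, while Runx1 and Ikaros (Ikzf1) act earlier, in stem cells and progenitors. Within DCs, Id2 and Batf3 are known for the conventional type 1 lineage, Zeb2 for the opposing lineages and Tcf4 (E2-2) for plasmacytoid DCs, and Id2 acts by blocking E proteins such as Tcf4. Several of these genes are also used outside blood, Zeb2 and Klf4 in mesenchymal cells among them. At the promoters of expressed genes, a nucleosome-depleted region (NDR) typically lies just upstream of the transcription start site (TSS), followed by a well positioned first nucleosome.

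The occupancies are relative to the surrounding 1 kb and do not give depth, which was judged instead by how many of the 200 bins of 10 bp, in percent, hold any fragment. Over all high-coverage promoters pooled sets had 82.0 to 90.2% of bins filled, single H3K4me1 libraries 63.5 to 78.1%, and those of pol-II 69.2 to 81.2%. Because the pooled sets sum 2 replicates, all occupancies are given relative to the mean of their library. Public expression data in the annotation, which were not measured on these cultures, matched the cell labels: all 10 of the dendritic cell markers looked up ranked higher in DCs and all 10 fibroblast markers ranked higher in fibroblasts. Lists for mast cells or progenitors and for lymphocytes summed to 0.239 and 0.151 FPKM in DCs, against 1300 FPKM for the dendritic list.

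The sequence upstream of each start shows what kind of promoter the occupancies refer to. The 150 bases before the TSS, in which the NDR was measured, are printed 5′ to 3′ on the strand of the gene in the mm9 build for 5 promoters that carry the comparisons. Cebpa was taken as a lineage-determining gene, both Runx1 starts and Zeb2 as contrasting depletion patterns, and Ikzf1 as a promoter not depleted relative to its upstream flank in most of the pooled sets. Capitals mark matches, on either strand, to GAGGAA (an ETS core as bound by PU.1), GGGCGG (GC box), CCAAT or TATAAA.
Cebpa, chr7:35904163-35904312, plus strand: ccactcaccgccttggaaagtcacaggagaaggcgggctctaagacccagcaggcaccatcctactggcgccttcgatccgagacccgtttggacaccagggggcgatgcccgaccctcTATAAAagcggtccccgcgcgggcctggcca
Runx1 start 1, chr16:92826312-92826461, minus strand: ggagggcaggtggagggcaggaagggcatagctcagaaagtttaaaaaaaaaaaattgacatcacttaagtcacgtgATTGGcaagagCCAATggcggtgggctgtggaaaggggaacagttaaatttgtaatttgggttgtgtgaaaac
Runx1 start 2, chr16:92697574-92697723, minus strand: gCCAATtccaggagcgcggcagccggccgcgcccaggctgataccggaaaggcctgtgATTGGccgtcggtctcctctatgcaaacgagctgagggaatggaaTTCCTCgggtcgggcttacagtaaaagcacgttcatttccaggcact
Zeb2, chr2:44968800-44968949, minus strand: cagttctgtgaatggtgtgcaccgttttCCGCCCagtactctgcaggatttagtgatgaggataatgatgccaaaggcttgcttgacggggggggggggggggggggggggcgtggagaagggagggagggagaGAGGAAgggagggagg
Ikzf1, chr11:11586067-11586216, plus strand: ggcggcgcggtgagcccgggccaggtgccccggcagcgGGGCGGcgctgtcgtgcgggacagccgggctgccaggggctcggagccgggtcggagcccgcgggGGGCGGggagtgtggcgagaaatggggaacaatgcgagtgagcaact

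Of the 11 member windows examined for motifs, that of Cebpa was the only one with a TATA box, which lay from −31 to −26 bp. The pair of Runx1 starts, 128738 bp apart, both held a pair of CCAAT boxes, and start 2 also held an ETS core. GC boxes were found in 7 of the 11 (37.4% of 25738 promoters with sequence), CCAAT boxes in 3 (26.1%), the ETS core in 2 (14.3%) and the E-box CANNTG, a motif of E proteins, in 4 (44.4%). None of the 11 held TTGCNNAA (C/EBP; 4.77% of promoters), TGTGGT (RUNX; 6.95%), ATGCAAAT (octamer; 1.01%), the NF-kB consensus (0.936%) or TGANTCA (AP-1; 3.86%). By base composition within 200 bp of the TSS (over 50% GC, and a CpG ratio, observed over expected, of more than 0.6), 8 of these 11 promoters were CpG islands, against 48.3% of all promoters. The 3 others were Runx1 start 1, Tcf4 start 2 and Zeb2. Runx1 start 1 had 47.4% GC and a CpG ratio of 0.314, whereas Runx1 start 2 had 62.1% and 0.985, so the alternative promoters of 1 gene differed in kind. Further members start at 192922294 on chromosome 1 (Batf3, plus strand), 167514416 on chromosome 2 (Cebpb, plus strand), 25780957 on chromosome 12 (Id2, minus strand) and 55545347 on chromosome 4 (Klf4, minus strand) of mm9. Each of the 11 starts was within 1 bp of a start in the GENCODE annotation of the same build.

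Most of these genes ranked higher in DCs than in fibroblasts before stimulation, with 10 of 12 promoters at a higher expression percentile in DCs. Since the scales differ between cell types, only ranks within a cell type are compared. Spi1 had 14.2 FPKM in DCs (percentile 98.4 of all promoters) and 0.0193 FPKM in fibroblasts (36.8). Batf3 ranked at 91.8 and 40.1, Ikzf1 at 77.1 and 30.9, and Cebpa at 95.2 and 56.8. A second group was high in both: Cebpb ranked at 99.5 and 88.0, Id2 at 99.7 and 94.3, and Zeb2 at 98.9 and 91.5. The Tcf4 starts were the exceptions, at 59.4 and 70.9 in DCs but 73.8 and 94.4 in fibroblasts. Runx1 start 1 ranked at 58.4 and 29.5, below start 2 with 84.8 and 61.4. These values are 1 sample per cell type and carry no test.

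**Figure D1:**
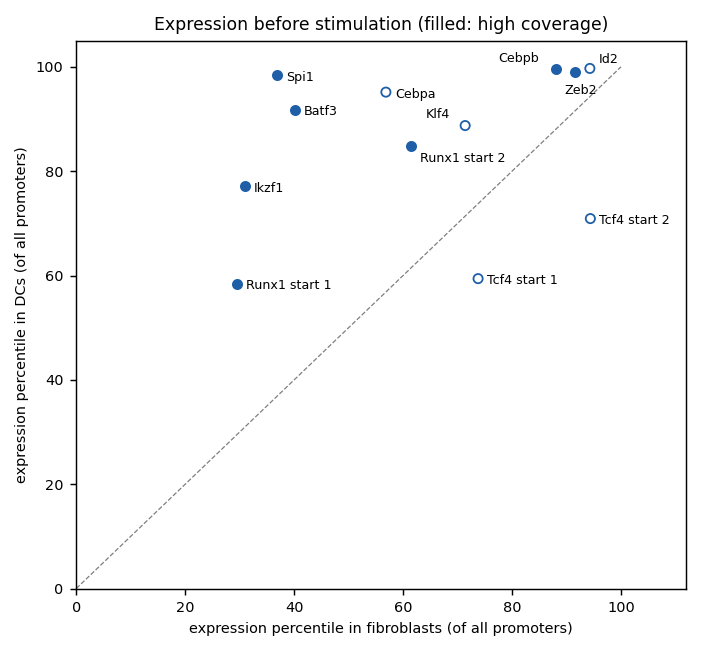
Expression percentile before stimulation among all 25881 promoters, in fibroblasts (x axis) against DCs (y axis), with 1 point per member promoter; filled points are the 7 high-coverage promoters and the dashed line marks equal ranks. Of the 12 points 10 lie above the line, and both Tcf4 starts lie below it.

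To describe the NDR, mean occupancy from −150 to 0 bp was divided by that from −1000 to −500 bp after 0.1 was added to both. A ratio below 1 means lower measured occupancy before the TSS than in the upstream flank. The paper states that such a signal can also reflect accessibility to the nuclease. The median ratio over high-coverage promoters lay between 0.531 and 0.772 in the 15 libraries. The ratio of a single promoter is imprecise: for each member the lowest and the highest of the 15 libraries differed by between 11.5 and 200-fold, the latter at Ikzf1. Where no fragment fell into the window before the TSS, the ratio is set by the added 0.1 and the flank. Such values do not grade the depletion.

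Spi1, which encodes PU.1, was depleted before its TSS in DCs. Its NDR ratio was 0.115 in non-stimulated and 0.252 in LPS-stimulated DCs, and in the pooled fibroblast sets it was 0.388 without and 0.845 with TNF-α. The lower ratios were thus those of the cell type in which the gene ranks higher, and the 2 cell types did not overlap in pooled sets. The 8 single fibroblast libraries ranged from 0.0984 to 1.87 with a median of 0.530, which spans both DC values. The highest bin just downstream of the TSS, which any library has, lay at 95 and 135 bp in the DC sets, with an occupancy of 2.88 and 3.52. In the pooled fibroblast sets it lay at 5 and 175 bp, with 2.18 and 1.10. Its occupancy ranged from 1.30 to 5.65 in the single fibroblast libraries, which spans both DC values.

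Cebpa and Cebpb encode C/EBPα, needed for the early granulocyte and macrophage lineage, and C/EBPβ, which is known as a rapidly inducible factor in inflammation. At Cebpa, a low-coverage promoter with a score of 34, the ratio was 0.0773 and 0.380 in the DC sets and 0.711 and 0.686 in the pooled fibroblast sets, again with DCs lower. The value of 0.0773 comes from a window before the TSS without any fragment. The single libraries ranged from 0.0614 to 1.28 (median 0.261). At Cebpb the ratio was 0.878 before and 0.168 after LPS in DCs, and 0.826 before and 0.140 after TNF-α in pooled fibroblasts, so the stimulated set was the lower one in both cell types. In control fibroblasts, however, it went from 0.626 to 0.0788 in replicate 1 and from 0.701 to 2.10 in replicate 2, so single replicates did not share a direction. Both stimulated pooled sets were also sparser at Cebpb. Filled bins were 83.5% before and 64.5% after LPS, and 83% before and 67% after TNF-α. The part of this sparser coverage in the ratios was not tested.

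Ikzf1 and Runx1 are factors of stem cells and progenitors. Ikzf1 was not depleted relative to its flank in most of the pooled sets. Its ratio was 1.50 and 0.866 in the DC sets and 1.51 and 1.76 in the pooled fibroblast sets, all above the library medians. These ratios rest on sparse coverage, as the filled bins stood at percentiles 15.7 and 3.2 in DCs and 2.3 and 3.1 in pooled fibroblasts. In non-stimulated pooled fibroblasts the ratio came from an occupancy of 0.628 before the TSS over only 0.381 in the flank, both below the library mean. The 8 single fibroblast libraries ranged from 0.1055 to 4.06, so they did not share a direction. In the pol-II S5P library the ratio reached 21.2, because no fragment fell into its flank there. In S7P replicate 1 neither the flank nor the window before the TSS held a fragment, so its ratio of 1 carries no information. Runx1 start 1 had the highest coverage score of all members, 326.5, and ratios of 0.330 and 0.393 in DCs against 0.818 and 0.622 in pooled fibroblasts. Of the 8 single fibroblast libraries, 7 lay between 0.523 and 1.02, above both DC sets, and BAF-knockdown stimulated replicate 2 had 0.0904. At Runx1 start 2 all pooled sets were depleted and the order was the opposite, with 0.224 and 0.223 in DCs and 0.135 and 0.0873 in fibroblasts. The value of 0.0873 comes from a window without any fragment.

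Among the DC subset factors, Zeb2 was depleted in both cell types, with ratios of 0.237 and 0.136 in DCs and 0.134 and 0.243 in pooled fibroblasts. Its single libraries lay between 0.113 and 0.985. Batf3, by contrast, had 0.932 and 0.543 in DCs and 0.397 and 0.551 in pooled fibroblasts, so the promoter of a gene that ranked much higher in DCs was not more depleted there. Id2 had 0.180 and 0.814 in DCs and 0.0862 and 0.0804 in pooled fibroblasts. Tcf4 start 1 had 0.0835 and 0.0986 in DCs and 0.620 and 0.181 in fibroblasts, whereas start 2, which lies 1229 bp away, had 0.778 and 0.914 in DCs and 1.78 and 1.79 in fibroblasts. Klf4, a factor of monocytes and also of epithelial and pluripotent cells, had 1.75 before and 0.0989 after LPS, and 0.0993 and 0.344 in fibroblasts. The last 3 genes are low-coverage promoters. No fragment fell before the TSS at Id2 in either pooled fibroblast set, or at Tcf4 start 1 in non-stimulated DCs. The same held at Klf4 in LPS-stimulated DCs and in non-stimulated pooled fibroblasts. Runx1 start 2, Zeb2 and Tcf4 start 1 were the 3 members below the library median in all 4 pooled sets.

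**Figure D2:**
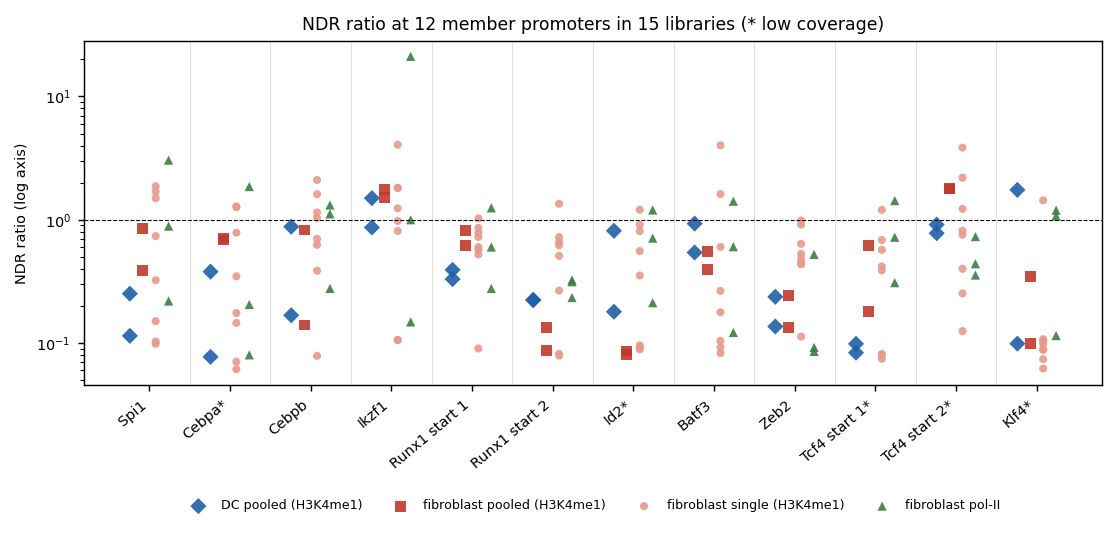
NDR ratio (y axis, log scale) of the 12 member promoters in each of the 15 libraries, with low-coverage promoters marked by an asterisk; diamonds are the 2 DC sets, squares the 2 pooled fibroblast sets, circles the 8 single H3K4me1 fibroblast libraries and triangles the 3 pol-II libraries, and the dashed line marks a ratio of 1. The circles of most promoters span more than the distance between diamonds and squares, as at Spi1 (0.0984 to 1.87).

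**Figure D3:**
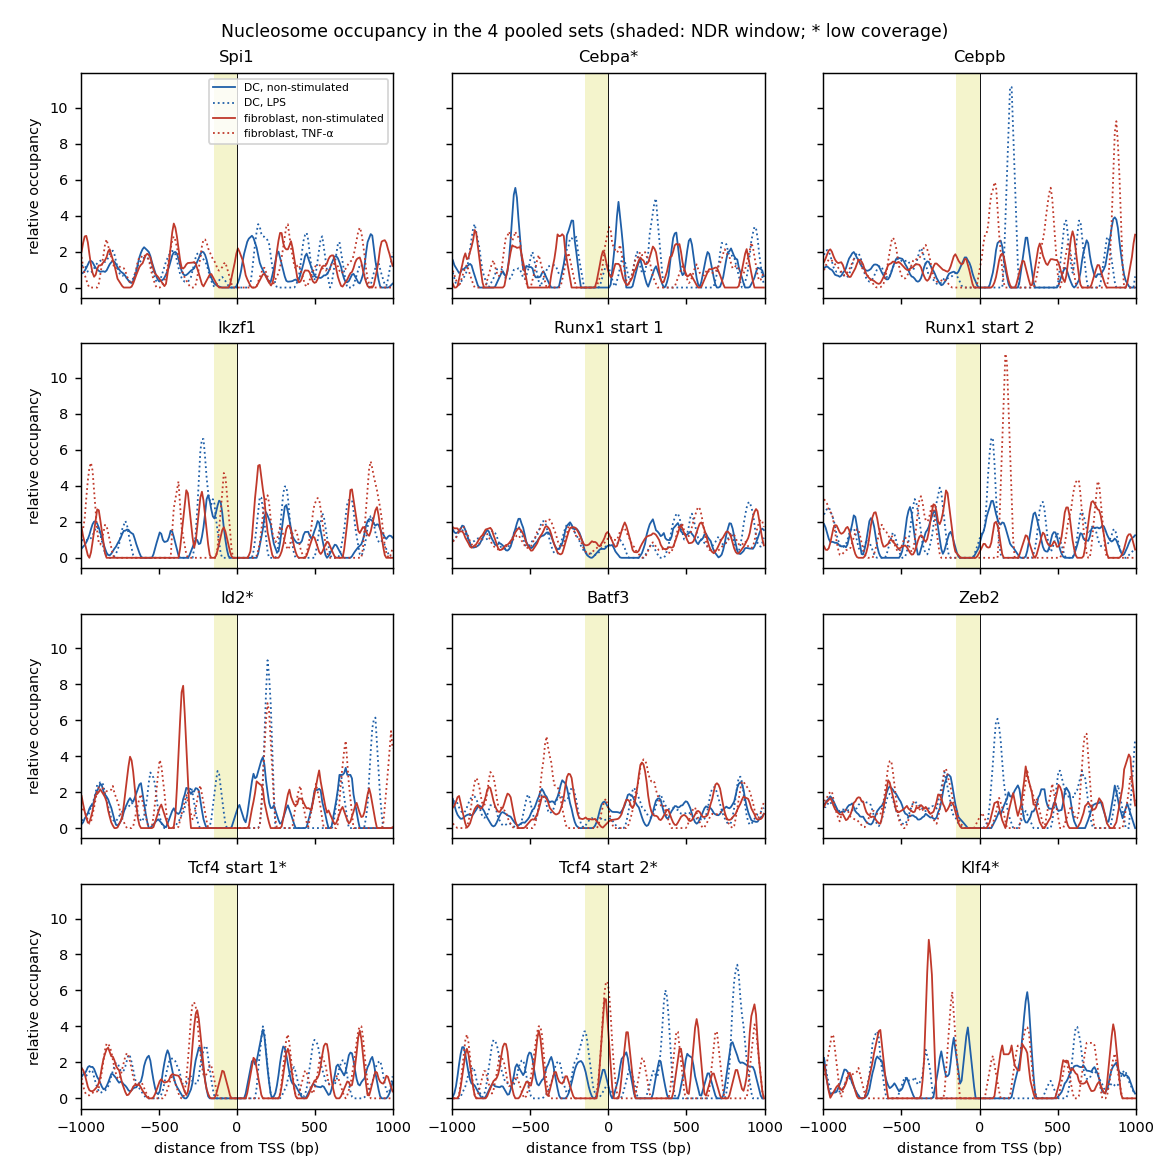
Occupancy divided by the library mean (y axis) against distance from the TSS in bp (x axis) for each member promoter in the 4 pooled sets; DCs are blue, fibroblasts red, stimulated sets dotted, and the shaded band is the window of the NDR from −150 to 0 bp. The band is nearly empty in all 4 sets at Runx1 start 2 and Zeb2 and holds peaks at Ikzf1, and at Spi1 it is emptier in DCs (ratios of 0.115 and 0.252) than in fibroblasts (0.388 and 0.845).

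Counted over the pooled sets, both DC values lay below both fibroblast values at 3 of the 7 high-coverage members (Spi1, Runx1 start 1 and Ikzf1), against 16.9% of the 13559 high-coverage promoters, and above them at 1 (Runx1 start 2), against 21.0%. Ikzf1 counts by a margin of 1.50 against 1.51. Of the 5 low-coverage members, Cebpa and both Tcf4 starts lay lower in DCs and Id2 higher. The share of low-coverage promoters with such an order was not counted, so this is not a result about these members. With the 8 single libraries included, no member was separated from all 10 fibroblast values in either direction. Such separation was rare over all 13309 promoters as well, at 1.82% with DCs lower and 1.65% with DCs higher.

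To test the cell types against the spread between libraries, the 12 H3K4me1 libraries were fitted with limma across 13309 high-coverage promoters. At an adjusted p under 0.05 none of the 7 members and 0 of all promoters (0%) were called, with 427 promoters (3.21%) and none of the members at an unadjusted p under 0.05. Spi1 had the largest difference among the 7 high-coverage members, with a log2 NDR ratio 1.76 lower in DCs (SE 1.64, 95% interval −5.29 to 1.77; adjusted p = 1). Runx1 start 1 differed by −0.99 (−3.27 to 1.30) and start 2 by 1.04 (−1.92 to 4.01). Zeb2 was close to 0, at −0.0047, with a wide interval from −2.48 to 2.47. The median over the members was −0.0047, beside 0.08 over all promoters tested. The direction at Spi1 was kept under all 20 alternatives, between −2.23 and −1.14, and that of Runx1 start 1 as well. Many of these could not change it, because the estimate compares the DC sets with the pooled fibroblast sets only. Leaving out any of the single fibroblast libraries keeps the estimate as it is, so such fits give no support for the direction. Without the stimulated DC set the difference at Spi1 was −2.23, and without the non-stimulated DC set −1.29. Among the low-coverage members, fitted together with all promoters that have fragments, Cebpa had −2.03 (SE 1.64) and Id2 2.20 (SE 1.55), both with an adjusted p of 1.

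The whole profile was compared through the patterning level, which sums the product of the centred occupancy and the centred mean profile of expressed promoters, so that a high level means a shape like that of an expressed promoter. At Spi1 it was 10.4 and 13.7 in DCs, 1.26 and 3.63 in pooled fibroblasts, and −6.44 to 9.49 in the single fibroblast libraries. Both DC sets were thus higher than every H3K4me1 fibroblast library, by a small margin of 10.4 against 9.49. Each cell type was measured against the mean profile of its own expressed promoters, and how many promoters share this order was not counted. The fitted difference was 9.63 (SE 5.18, 95% interval −1.45 to 20.7; adjusted p = 0.999 by limma). Among the other high-coverage members, Zeb2 had 5.20 (SE 5.96) and Runx1 start 2 −8.81 (SE 8.32). Of the low-coverage members, fitted with all promoters that have fragments, Tcf4 start 2 had 15.2 (SE 7.87), Cebpa 9.0 (SE 6.25) and Klf4 −7.85 (SE 6.43), each with an adjusted p of 0.999. Of all promoters, 2 (0.0150%) were called, none of them a member, and 366 (2.75%) passed an unadjusted p under 0.05, again without a member. The median over members was 0.393, beside −0.252 over all. When occupancies were left as deposited, 125 promoters were called in place of 2, still without a member.

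**Figure D4:**
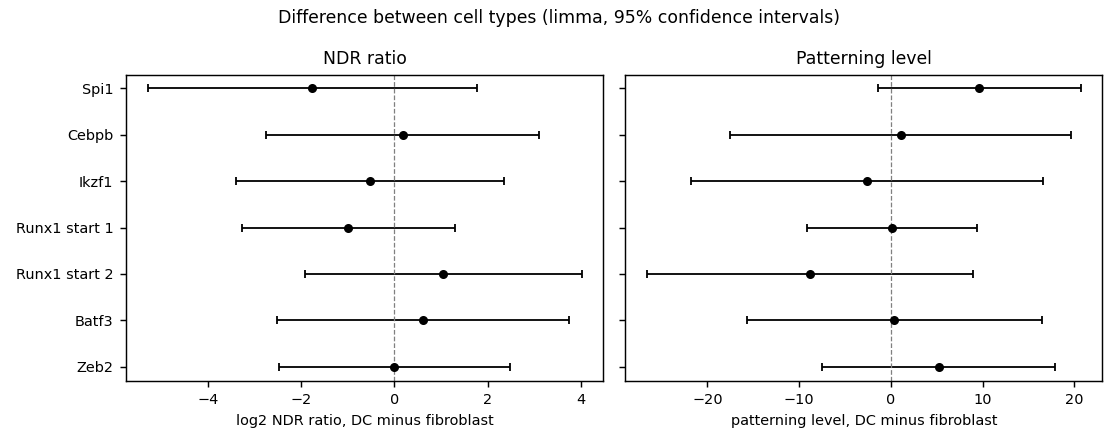
Difference between DCs and fibroblasts at the 7 high-coverage members, in the log2 NDR ratio (left panel) and the patterning level (right panel); points are limma estimates, bars 95% confidence intervals, and positive values are higher in DCs. All intervals include 0, and Spi1 lies farthest from 0 in both panels, at −1.76 and 9.63.

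Stimulation was next asked about, since several members respond early to inflammatory signals. For LPS in DCs there is 1 pooled set per state and no test. TNF-α was tested in the 8 single fibroblast libraries. The methods give the replicates as biological ones, and with 2 in each group the p-values rest on the spread between these few samples. In these libraries, limma called none of the 7 members and 0 of 13309 promoters (0%) in the NDR ratio, with 637 (4.79%) and no member at an unadjusted p under 0.05. For the patterning level it also called 0 (0%), with 628 promoters (4.72%) and no member at an unadjusted p under 0.05. Ikzf1 had −1.69 (SE 1.03) and Batf3 1.57 (SE 1.17) in the log2 NDR ratio. Spi1 and Cebpb were near 0, at −0.03 (95% interval −2.80 to 2.74) and −0.12 (−2.16 to 1.92).

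Tcf4 start 2 was the 1 member of 12 whose 4 stimulated values lay below all 4 non-stimulated ones, a pattern of 1.77% of the 24867 promoters with fragments. Its NDR ratio was 2.20 and 3.85 in non-stimulated control fibroblasts and 1.23 and 0.815 in non-stimulated knockdown fibroblasts. After TNF-α it was 0.400 and 0.253 in control and 0.757 and 0.125 in knockdown fibroblasts. The log2 difference was −2.45 (SE 0.69), with an adjusted p of 0.967 by limma over all promoters, and the pooled fibroblast sets, at 1.78 and 1.79, showed no such difference. As a low-coverage promoter with a score of 65, it is among the less certain values.

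BAF knockdown did not call any member either. For the NDR ratio limma called 0 of 13309 promoters (0%), with 599 (4.50%) and no member at an unadjusted p under 0.05, and for the patterning level 0 (0%), with 695 (5.22%) and no member. At Batf3 the ratio was 0.602, 0.0828, 1.62 and 4.02 in the 4 control libraries and 0.104, 0.265, 0.178 and 0.0920 in the 4 knockdown libraries. The log2 difference was −2.37 (SE 1.17, adjusted p = 0.957), and the groups overlapped through a single control library. At Zeb2 the 4 knockdown libraries (0.985, 0.528, 0.913 and 0.638) lay above the 4 control libraries (0.448, 0.113, 0.436 and 0.481), a pattern of 1.43% of promoters with fragments, with a log2 difference of 1.21 (SE 0.80, 95% interval −0.54 to 2.96; adjusted p = 0.957). The names of the replicate 1 knockdown libraries, which had the highest ratios (0.985 and 0.913), carry another mark (04U) than the other 6 single libraries (12U). The sources do not explain this mark, it occurs only with knockdown, and its part in the result was not tested. The knockdown libraries with the same mark as the controls had 0.528 and 0.638, beside 0.113 to 0.481 in the controls. How many promoters share this order was not counted. The patterning level of Zeb2 was 7.24 lower with knockdown (SE 3.55, adjusted p = 0.948). Whether TNF-α acted differently in knockdown cells was tested as an interaction, which was called at 0 promoters (0%), with 659 (4.95%) and no member at an unadjusted p under 0.05. Its largest value among members was −3.89 at Batf3 (SE 2.08).

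Pol-II ChIP-MNase enriches chromatin that carries transcribing polymerase, and was compared with the H3K4me1 control libraries of the same stimulated state. In the NDR ratio, 0 of 13319 promoters (0%) were called by limma, with 708 (5.32%) and 1 member, Batf3, at an unadjusted p under 0.05. Batf3 had ratios of 0.605 and 1.41 with S7P and of 0.122 with S5P, against 1.62 and 4.02 in H3K4me1, a log2 difference of −2.44 (SE 1.03, adjusted p = 0.789). Zeb2 had 0.0922, 0.523 and 0.0855 in pol-II and 0.436 and 0.481 in H3K4me1.

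How much of each promoter was covered by fragments differed more clearly between the antibodies. After seeing the data, the percentage of bins with fragments, less the median of each library, was therefore compared in the same 5 libraries, which called 2726 of 13319 promoters (20.5%), 1163 with a higher (8.73%) and 1563 with a lower coverage in pol-II (11.7%). The coverage limit rests on H3K4me1 fragments, so the promoters tested were selected on 1 side of this comparison. How far this shapes the direction of the calls was not tested. Of the 7 members, 3 were called. Cebpb, at expression percentile 88.0 in fibroblasts, was covered in 80.5, 95 and 100% of bins in the pol-II libraries and in 66.0 and 48.0% in H3K4me1. It was higher in pol-II by 23.2 percentage points (SE 7.18; adjusted p = 0.033). Ikzf1, at expression percentile 30.9 in fibroblasts, was covered in 28.0, 33.0 and 34.5% in pol-II and 63.0 and 52.0% in H3K4me1, a difference of −37.3 points (SE 11.7; adjusted p = 0.034). Runx1 start 1 was covered in 54.0, 74.5 and 83.0% in pol-II and 100 and 80.5% in H3K4me1, a difference of −31.4 points (SE 7.35; adjusted p = 0.015). At Cebpb and Ikzf1 the values of the antibodies did not overlap, and at Runx1 start 1 they overlapped once, before the median of each library was subtracted. The share of all promoters without such overlap was not counted, so this is not a result about these members.

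The calls at these 3 promoters were lost when some single library was left out. Without stimulated control replicate 1 or replicate 2 the total fell to 618 or 275 promoters, and all 3 members had an adjusted p between 0.060 and 0.257. Without S7P replicate 2, Cebpb (0.103) and Ikzf1 (0.064) were not called, while Runx1 start 1 was (0.011). Over all promoters with fragments, low-coverage ones included, 0 of 24863 were called, and Runx1 start 1 had an adjusted p of 0.077. With the 8 single H3K4me1 libraries in place of 2, 37.3% of 13295 promoters were called and the same 3 members remained, with adjusted p of 0.007 (Cebpb), 0.003 (Ikzf1) and 3.5e-04 (Runx1 start 1). Pol-II libraries were sequenced from both ends and H3K4me1 libraries from one, so the antibody and the type of sequencing cannot be told apart. Spi1 was covered in 39.0, 85.5 and 91.5% of bins in pol-II and in 84.0 and 43.5% in H3K4me1, so its replicates differed more than its groups. At the low-coverage promoters Id2 (94.5, 80.5 and 94.5%) and Klf4 (67.0, 86.0 and 95%), pol-II coverage was high, beside 81.0 and 34.0% and 73.5 and 55.5% in H3K4me1. With all promoters that have fragments fitted together, neither was called, with adjusted p of 0.217 and 0.538.

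**Figure D5:**
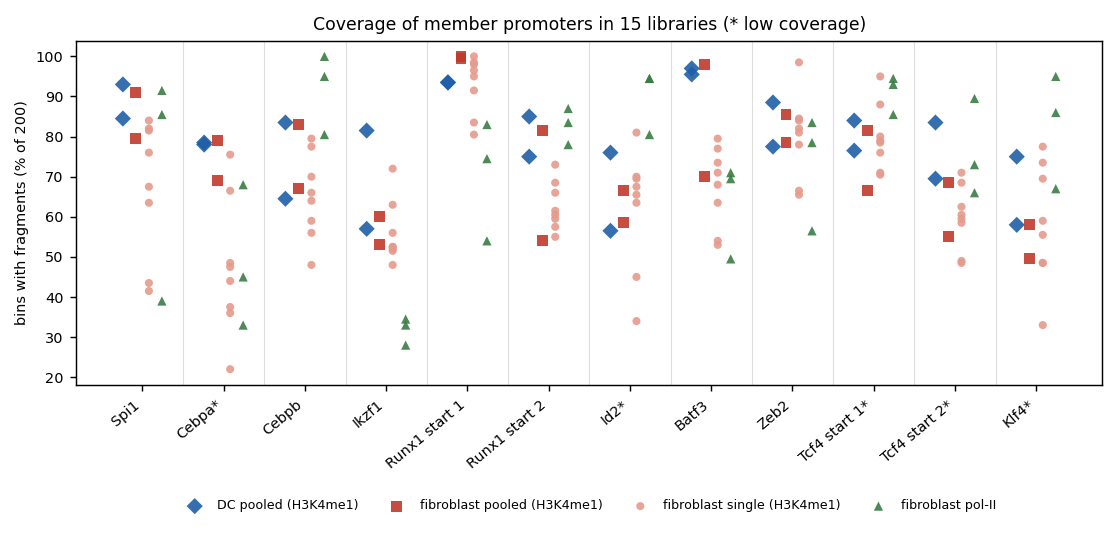
Percentage of the 200 bins that hold fragments (y axis) at each member promoter, with symbols as in the plot of NDR ratios. The pol-II triangles lie below all circles at Ikzf1 (28.0 to 34.5%) and above all circles at Cebpb (80.5 to 100%), while Runx1 start 1 is covered by 80.5 to 100% in H3K4me1 fibroblast libraries. How many of all promoters show such an order was not counted.

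Runx1 start 1 thus combined dense H3K4me1 coverage with a low expression rank in fibroblasts. Among high-coverage promoters of the same library its covered share stood between percentile 81.0 and 99.6 in the 10 fibroblast H3K4me1 libraries, at 50.1 and 65.3 in DCs and between 23.6 and 34.0 in pol-II. The added comparison of DCs with fibroblasts, in which 599 promoters (4.50%) were called, gave −10.5 points at this start (SE 4.55; adjusted p = 0.267), and none of the other members was called.

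The shape of the profile around the members was repeated between sets to different degrees. Over the 200 bins, the mean profile of the 8 single fibroblast libraries correlated with that of the pooled fibroblast sets with r = 0.596 at Runx1 start 1, 0.570 at Zeb2 and 0.541 at Cebpb, beside a median of 0.406 over high-coverage promoters, but with r = 0.209 at Spi1 and −0.037 at Runx1 start 2. From −1000 to −200 bp, the pooled DC and fibroblast profiles had r = 0.844 at Zeb2, 0.769 at Runx1 start 1 and 0.713 at Spi1 (median 0.380). From 200 to 1000 bp the same pair had −0.516 at Spi1, 0.439 at Runx1 start 1 and −0.108 at Zeb2 (median 0.321), so at Spi1 these pooled profiles were alike upstream and not downstream of the TSS. This was not seen with the 8 single fibroblast libraries in place of the pooled ones, where DCs and fibroblasts had r = 0.260 upstream and 0.062 downstream at Spi1. The single and pooled fibroblast profiles of Spi1 themselves had r = −0.219 downstream. Neighbouring bins overlap and are not independent, and these correlations are descriptions.

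Across the 15 libraries, the log2 NDR ratio of Spi1 was most like that of Sytl3 (r = 0.843), Lipe (0.835) and Lemd2 (0.813), that of Cebpa like Lrrc3, Rabgef1 and Pank4 (0.796 to 0.814), and that of Klf4 like Spcs2, Lrrc28 and Mbd3 (0.866 to 0.875). These were the highest of 12984 or 12985 promoters compared, over points that share library and depth, and no other member was among them. A wider list of 34 haematopoietic and myeloid factor genes has 42 promoters, 28 of them above the coverage limit. None of those tested was called in any of the 8 planned comparisons of NDR ratio and patterning, and the median log2 difference between DCs and fibroblasts in the NDR ratio was 0.16. In the added comparison of covered bins, 7 of the 28 were called between pol-II and H3K4me1, 6 of them lower and 1 higher in pol-II, again beside the 20.5% of all promoters. The higher one was Id3, an inhibitor of E proteins like Id2, with a difference of 29.8 points (SE 6.89, adjusted p = 0.015). The lower ones were promoters of Irf4, Irf8, Batf2, Bcl11a and, with 2 starts, Gfi1, between −54.8 and −21.7 points. These names were chosen after their values were seen.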

How the data were processed

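ChIP-MNase libraries (12 H3K4me1, 3 pol-II) were analysed from the values deposited by the authors. Per the methods, reads were aligned to mm9 with bowtie (the submitters' processing notes list Bowtie2 and bedtools), and fragments were counted in bins of 10 bp around refGene start sites. The deposited occupancy signal was divided by the authors by the fragments of the surrounding 1 kb and averaged over 50 bp. H3K4me1 reads were single-end, and pol-II fragments of 140 to 180 bp were paired-end. The coverage score and the FPKM values, the latter from public RNA-seq, were deposited by the authors with the promoter annotation. Its columns of induction hold the authors' array differences and were not used.

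RefSeq identifiers were matched to symbols for 24920 promoters (96.3%). All promoters of the 10 genes were named, and for Spi1, Cebpa and Klf4 also the 3 promoters with the most similar NDR ratio. The members, lists and tests were chosen with earlier results of these data known. Occupancy was divided by the library mean over high-coverage promoters (score above 100). The log2 NDR ratio (pseudocount 0.1) and the patterning level were fitted with limma 3.58.1 (R 4.3.3, eBayes with trend) and adjusted by Benjamini-Hochberg at 0.05. High-coverage promoters without fragments in some library were left out, which left 13309 or, for pol-II, 13319. The fit of DCs against fibroblasts held terms for pooling, stimulation and knockdown, so that DCs were compared with pooled fibroblast sets while the spread came mostly from the single fibroblast libraries. The comparison of covered bins was added after seeing the data. Fits were tested on simulated data. Promoter sequences and gene starts were read from the mouse genome of the same build, and the sequence of 1 promoter is not reported here. Alternatives were other windows, pseudocounts, scalings, filters and sample sets, a replicate block and each library left out.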

Additional observations from a re-analysis of the deposited data

How the results depend on the processing

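In the 8 planned comparisons, 119 of 123 alternative fits called 0 promoters, and no member was called in any of them, with a smallest adjusted p of 0.129. Leaving out single libraries gave 0 to 1 promoters for BAF knockdown (1 without stimulated control replicate 2) and 0 to 1 for the NDR ratio of pol-II (1 without S7P replicate 1). The patterning difference between cell types, with 2 promoters called, gave 125 with occupancy as deposited (58 higher, 67 lower), 5 with the 4 pooled sets only, and 0 over all promoters, without the trend, on the square root, with each library left out, and, chosen after seeing the data, without the knockdown libraries or with 1 template. The cause of these changes was not tested.

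The covered bins in pol-II, with 2726 promoters called, gave 0 over all promoters, 4957 with 8 single H3K4me1 libraries, and 275 to 3961 with single libraries left out (1738 without S7P replicate 1). Those of DCs, with 599 called, gave 3621 over all promoters and 195 to 676 with single libraries left out. The lower counts were 367 and 236 without the non-stimulated and the stimulated DC set, and 310 and 195 without the non-stimulated and the stimulated pooled fibroblast set.

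Among members, the log2 NDR difference between cell types changed sign at Batf3 (−0.46 to 1.67 with single libraries left out, −0.46 without the non-stimulated DC set), at Cebpb (−0.82 to 1.17, −0.60 with the NDR from −200 to 50 bp, −0.71 without the non-stimulated DC set, −0.82 without the stimulated fibroblast set), at Ikzf1 (−1.39 to 0.34, 0.45 with the same wider NDR, 0.34 without the stimulated fibroblast set) and at Zeb2 (−0.71 to 0.70, 0.0017 with a pseudocount of 0.25, 0.70 without the stimulated DC set, 0.28 without the stimulated fibroblast set). Covered bins in pol-II changed sign at Spi1 (−18.2 to 11.3 points, 11.3 without stimulated control replicate 1, 8.50 without S7P replicate 1).

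With the replicate number as a block, 0 promoters were called in each of the 5 fits of single libraries, with 597 to 693 at an unadjusted p under 0.05. Deviations of libraries with the same number correlated with r between −0.009 and 0.022. Values of single promoters are too noisy for this to exclude a pairing. Filled bins were higher in replicate 1 than in replicate 2 of each single H3K4me1 group, and lower in S7P (69.2 and 79.95%). They were 74.9 and 69.7% in non-stimulated and 73.4 and 63.55% in stimulated controls, and 78.1 and 67.9% and 76.0 and 68.3% in the knockdown groups. Whether the numbers mark shared batches was not tested. The depth of a single promoter limits every NDR ratio, and DCs were deposited only as pooled sets, so that their replicate spread could not be measured here.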
